A study of Mus musculus with 77 samples.

Results

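The ribosome-bound RNA of dorsal root ganglion glia was compared between ganglia collected 4 h after injury of the sciatic nerve and ganglia of uninjured (naive) mice. The comparison takes 6 of the 77 samples of the series, which are 3 Dhh pull-down libraries at 4 h and 3 naive Dhh pull-down libraries of the same injury series, chosen by the labels for line, fraction and time. All 6 came from RiboTag mice on the ICR background, in which both copies of the ribosomal protein gene Rpl22 carry an HA tag that appears only after Cre recombination, and in which 1 copy of Dhh-Cre drives that recombination in Schwann cells and satellite cells. By the study's methods the mice were males of 8 to 12 weeks, and ribosomes were precipitated from lumbar ganglia (L4 to L6) with an antibody to HA. The naive libraries served as the reference for every time point and no sham-operated group was analysed here, so that effects of the lesion, of the surgery and of the time of day cannot be told apart.

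The labels call these samples sensory neurons, although the line is the glial one, and the marker genes below were used to check this. Whether each library stands for a different animal is not given there, and the p-values below rest on the scatter among libraries alone, which may be technical. Dhh-Cre marks both kinds of glia at once, and in a pull-down fewer cells of a type and less RNA per cell cannot be told apart. No lysate of the Dhh line after injury was analysed here, so a change in the RNA of a gene and a change in the share of it on ribosomes cannot be told apart either. For comparison, the Dhh pull-downs at 12 h (3 libraries) and 24 h (2), and the Isl1 pull-downs (3 naive, 3 at 4 h) and whole-ganglion lysates (3 naive, 2 at 4 h) were used, the Isl1 line being RiboTag with 1 copy of Isl1-Cre, which marks sensory neurons, on the same background. Values are given as CPM, which are the counts of a gene divided by the total of its library and multiplied by 1000000. A change is the log2 of the level at 4 h over the level in naive ganglia, followed by its standard error.

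Schwann cells wrap or accompany the axons of the ganglion, and satellite cells form a sheath around each neuron cell body. Both respond to lesions of the nerve, although the lesion lies far from the ganglion. Immediate early genes are the genes that cells switch on first after a stimulus, without needing new protein, and many of their promoters hold sites for CREB or for serum response factor. Most of their mRNAs are short-lived, and several encode proteins that end the response, such as phosphatases of MAP kinases and RNA-binding proteins that speed mRNA decay.

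Shown are promoter stretches of 9 genes that rose at 4 h, picked because they carry sites that immediate early genes are known for. They are RefSeq sequences of the GRCm38.p6 build (mm10), read from windows of 250 bases before to 50 bases after a start site, 5′ to 3′ on the strand of the gene. Capitals mark the motif. The full CREB site (CRE, TGACGTCA, the same on both strands) stood in the windows of 5 risen genes, Btg2, Dusp1, Clk4, Plk2 and Tmem39a, of which the first 3 are shown. It is in 1.79% of all 32851 windows, and 3.73% of tested genes with a window have it in at least 1. Of 11 risen members of the immediate early list with a window, 1 had it, Btg2.
Btg2, chr1:134079294-134079341, minus strand: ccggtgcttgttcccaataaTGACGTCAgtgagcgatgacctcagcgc
Dusp1, chr17:26508588-26508635, minus strand: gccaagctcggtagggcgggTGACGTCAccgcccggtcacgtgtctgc
Clk4, chr11:51263029-51263076, plus strand: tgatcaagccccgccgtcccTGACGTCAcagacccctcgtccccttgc
The CRE half-site (TGACG, or CGTCA on the other strand, which the full site contains) is common, in 20.8% of all windows. Of genes with a window, 36.8% of those tested, 48.9% of those risen and 32.1% of those fallen had it in at least 1. For Fos, Fosb, Junb, Csrnp1 and Nr4a1 the last copy before the start is shown, from the first window listed for each gene.
Fos, chr12:85473804-85473848, plus strand: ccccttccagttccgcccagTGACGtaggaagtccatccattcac
Fosb, chr7:19310081-19310125, minus strand: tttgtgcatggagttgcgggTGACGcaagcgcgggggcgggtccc
Junb, chr8:84978830-84978874, minus strand: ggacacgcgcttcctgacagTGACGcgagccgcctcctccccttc
Csrnp1, chr9:119984860-119984904, minus strand: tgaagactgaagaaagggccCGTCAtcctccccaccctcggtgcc
Nr4a1, chr15:101266786-101266830, plus strand: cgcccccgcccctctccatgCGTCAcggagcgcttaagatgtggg
A CArG box, the site of serum response factor, stood in the window of Zfp36 and in 1.63% of all windows. Of risen genes with a window 2.22% had it, Zfp36 alone, and of tested genes 1.5%.
Zfp36, chr7:28379257-28379306, minus strand: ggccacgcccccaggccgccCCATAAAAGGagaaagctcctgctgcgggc
The motif began 166 bases before the start in Btg2, 143 in Dusp1, 65 in Clk4, 66 in Fos and 58 in Zfp36. Only 45 of the 58 genes that rose could be matched to a window (77.6%, against 80.0% of genes tested and 82.4% of those that fell). Differences between gene groups in the share of promoters with a motif were not tested. A match to letters is not evidence of binding.

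The 6 libraries held 39820669 to 53716839 counts each, and no pair within a group was near-identical. Markers matched the glial line and not the labels' cell type. The summed level of 17 markers of myelinating Schwann cells was 28810 to 33470 CPM in the naive libraries and 30530 to 38230 CPM at 4 h, against 907 to 942 CPM in the naive pull-down of the neuronal Isl1 line. For 18 sensory neuron markers it was 1407 to 1695 CPM in naive and 1475 to 1694 CPM at 4 h, against 35720 to 36870 CPM in the Isl1 pull-down. No member of either list was called changed at 4 h. The sum of 16 markers of satellite and immature glia lay at 17460 to 20410 CPM in naive and 21280 to 23060 CPM at 4 h, without overlap, and 0 of the 16 were called. Fabp7, a lipid carrier of satellite and immature glia, had the largest difference among them, with 2179, 4813 and 4193 CPM in naive and 6004, 7097 and 5733 CPM at 4 h (adjusted p = 0.235, edgeR). Fibroblast markers (7 of 10 listed) summed to 1372 to 1540 CPM in naive and 1536 to 1640 CPM at 4 h, about as high as the neuron markers, against 40.6 to 61.0 CPM in the naive Isl1 pull-down. Mural markers (5 of 8 listed) summed to 111 to 130 CPM in naive and 124 to 128 CPM at 4 h, endothelial ones (3 of 10) to 18.1 to 26.8 CPM and 22.6 to 26.8 CPM, and macrophage ones (3 of 13) to 1.66 to 2.92 CPM and 2.89 to 5.12 CPM. The part of these cells in the changes at 4 h was not tested. The driver gene Dhh and the tagged gene Rpl22 did not pass the test, at 0.19 and -0.05 on the log2 scale.

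At 4 h the glia showed a short list of changed genes with steep rises at its head. Of 11000 genes tested, 126 were called (1.15%), 58 higher (0.527%) and 68 lower (0.618%), at a false discovery rate (FDR) under 0.1 in edgeR's quasi-likelihood test over all 11 libraries of the Dhh time course. The rises were steeper than the falls, with a median log2 change of 1.27 against -0.838. Of the calls, 36 rises and 21 falls exceeded 2-fold, and 11 rises and 0 falls exceeded 8-fold. In all 126 the 3 libraries at 4 h lay on one side of the 3 naive libraries, as they did in 21.1% of all genes tested. The number of calls depends on the libraries in the fit: it was 33 without naive replicate 1, 56 without naive replicate 2, 124 without naive replicate 3, 48, 36 and 37 without replicates 1, 2 and 3 at 4 h, and 418 without the 12 h libraries. The 29 genes called with each of the 6 libraries left out in turn were 23 rises and 6 falls. Set against the naive Dhh pull-downs of a separate series, which were tabulated apart, 7290 of 9502 genes were called, 3650 higher and 3640 lower. Of the 126 calls, 63 were called there in the same direction. A call in either direction was common there among all genes, so this overlap does not back the 126 calls. The sign was looked up only for genes named in this report. Of the called ones, Junb, Nr4a1, Hes1, Per2, Pde1a and Smc5 changed sign. Therefore only the naive libraries of the injury series are used below.

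**Figure D1:**
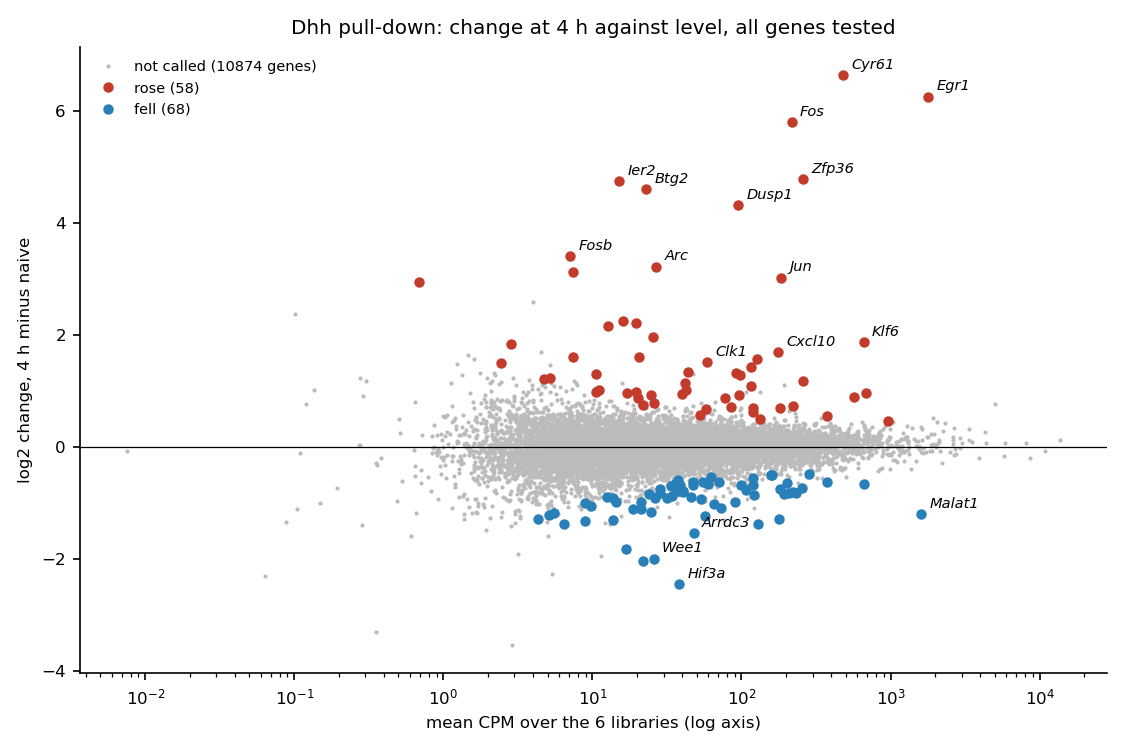
Change at 4 h in the Dhh pull-down (log2, 4 h minus naive) against the mean level over the 6 libraries (CPM, log axis), 1 point per gene tested, with the 58 genes that rose in red, the 68 that fell in blue and the others in grey. Rises of more than 8-fold number 11 and falls of that size 0.

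Transcription factors of the immediate early class were among the steepest rises. Egr1, a zinc finger factor (mm10 chr18:34859823-34864984), was at 47.3, 44.8 and 49.6 CPM in the naive libraries and 3773, 3128 and 3739 CPM at 4 h. It was the most abundant gene among the steep rises, and its change was 6.26 ± 0.69 on the log2 scale (n = 3 and 3, adjusted p = 0.000167, edgeR). Fos, a subunit of the AP-1 factor (chr12:85473890-85477273), went from 8.96, 7.97 and 6.54 CPM to 485, 354 and 441 CPM. Its change of 5.80 ± 0.45, a 55.9-fold rise, had the smallest adjusted p of all genes tested (1.28e-05, edgeR). The AP-1 partner Jun started from a higher level, with 44.7, 42.1 and 36.9 CPM in naive and 322, 319 and 348 CPM at 4 h, an 8.17-fold rise. Within each group the 3 libraries of Jun were close to each other, and the groups were far apart.

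The other AP-1 members rose from low levels. Fosb had 0.929, 1.95 and 0.841 CPM in naive and 13.3, 8.09 and 17.3 CPM at 4 h (log2 change 3.42 ± 0.45). Junb had 1.10, 1.74 and 1.78 CPM in naive and 15.1, 11.8 and 13.2 CPM at 4 h (log2 change 3.14 ± 0.44). Both genes stayed below 20 CPM in every library at 4 h, well under Fos and Jun. Atf3, a factor best known from injured sensory neurons, was at 6.50, 7.08 and 7.42 CPM in naive glia and 27.9, 40.1 and 28.4 CPM at 4 h. Its rise was 4.67-fold (adjusted p = 0.00144, edgeR), and the level at 4 h was 27.9 CPM or more in each library. Klf6, a zinc finger factor that was already abundant, rose 3.68-fold, from 288, 272 and 301 CPM to 952, 1014 and 1134 CPM. The nuclear protein gene Csrnp1 went from 4.62, 4.75 and 7.51 CPM to 21.1, 31.5 and 26.6 CPM, and the orphan nuclear receptor Nr4a1 from 177, 169 and 130 CPM to 381, 344 and 340 CPM. Csrnp1 lost its call with 1 library left out, and Nr4a1 with any 1 of the 6 left out (adjusted p up to 0.209, edgeR).

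Some of the steepest rises, such as Zfp36 and Dusp1, encode brakes on the same response. Zfp36 (tristetraprolin), which binds AU-rich mRNAs and speeds their decay, went from 19.5, 21.6 and 14.3 CPM to 553, 376 and 575 CPM, a 27.8-fold rise (log2 4.80 ± 0.47, adjusted p = 4.43e-05, edgeR). Dusp1, a nuclear phosphatase of MAP kinases, was at 11.4, 10.2 and 6.06 CPM in naive and 205, 139 and 196 CPM at 4 h, 20.0-fold higher. Dusp6, the cytoplasmic phosphatase of ERK, was more abundant in naive glia and rose less, from 78.3, 63.1 and 51.6 CPM to 170, 182 and 212 CPM. These phosphatases were the 2 risen members of 11 tested genes of the ERK feedback list (18.2%, against 0.527% of all genes), whose median change was 0.0447. The other 9 were not called, among them Dusp4 at 0.02 and Spry4 at 0.04. Btg2, an antiproliferative protein that also promotes mRNA deadenylation, went from 2.41, 1.51 and 1.59 CPM to 44.5, 44.9 and 42.4 CPM, a 24.5-fold rise (log2 4.62 ± 0.40). Ier2 rose 27.0-fold, from 1.28, 0.729 and 1.30 CPM to 28.9, 22.4 and 36.5 CPM, and Ier3, linked to cell survival, 4.47-fold, from 3.84, 3.72 and 6.67 CPM to 20.8, 24.8 and 17.0 CPM. Arc, known from the synapses of the brain, was at 4.75, 4.45 and 6.63 CPM in naive glia and 48.2, 42.5 and 54.7 CPM at 4 h (log2 3.23 ± 0.31).

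Over the whole immediate early list, 14 of 26 tested genes rose and 0 fell. Their share of 53.8% stands beside 0.527% of all genes tested, and the list's median change was 1.54 beside 0.00301 for all genes. Their summed level was 946 to 1063 CPM in the naive libraries and 6347 to 7449 CPM at 4 h. With 1 library left out, 12 rose without naive replicate 1 and 13 without any of the other libraries. The remaining members were not called. Myc, a driver of cell growth, was at 9.87, 6.45 and 5.26 CPM in naive and 8.03, 6.11 and 7.99 CPM at 4 h, and Fosl2 at 42.7, 34.0 and 25.3 CPM and 24.5, 31.9 and 35.2 CPM, with overlap in both. Egr2, the factor that drives myelin genes, and Maff were higher in all 3 libraries at 4 h without passing the test, at 0.64 (adjusted p = 0.167) and 1.11 (adjusted p = 0.301, both edgeR). Klf2 went the other way, with 5.32, 6.45 and 3.29 CPM in naive and 1.65, 1.05 and 1.23 CPM at 4 h, and was not called (adjusted p = 0.158, edgeR).

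**Figure D2:**
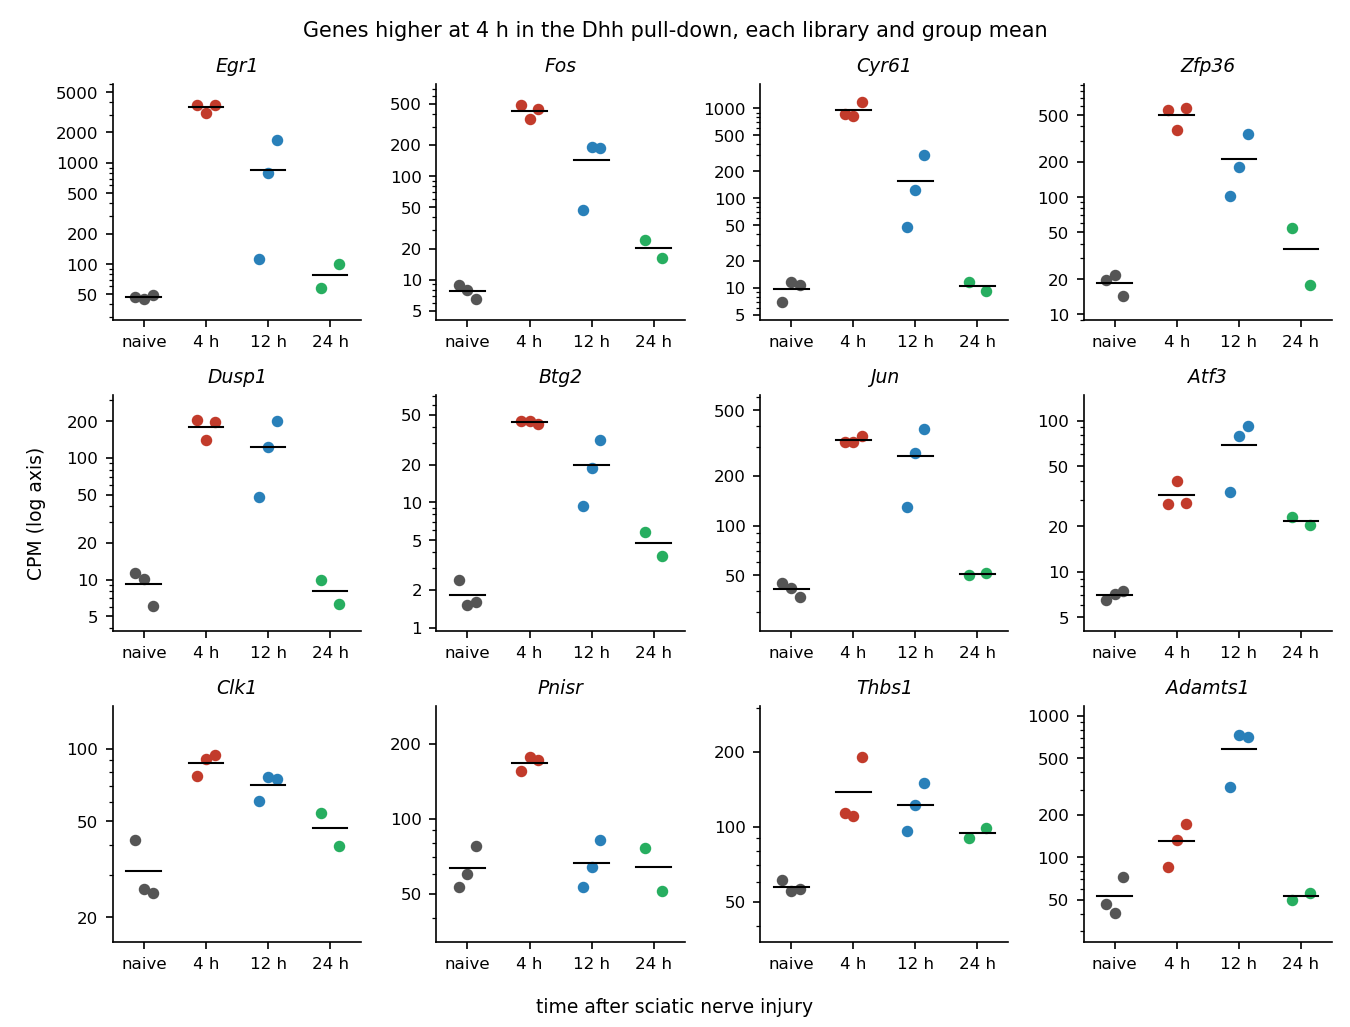
Level (CPM, log axis) of 12 genes that rose at 4 h in the Dhh pull-down, 1 point per library, with group means as bars, for 3 naive libraries, 3 at 4 h, 3 at 12 h and 2 at 24 h. All libraries at 4 h lie above all naive libraries in each panel, and for Egr1, Fos, Cyr61, Zfp36 and Btg2 each library at 12 h lies below each library at 4 h.

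Some genes of secreted and matrix proteins rose. Cyr61 (CCN1), a matrix-bound signalling protein and a classical target of YAP and serum response factor, had the steepest rise of all genes (chr3:145646971-145649985). It was at 7.03, 11.6 and 10.7 CPM in naive and 863, 833 and 1172 CPM at 4 h, a 99.9-fold change (log2 6.64 ± 0.56, adjusted p = 2.15e-05, edgeR). It was the only called gene of 14 tested in the YAP and SRF list (7.14%, against 0.527% of all genes), whose median change was 0.322. Thbs1 (thrombospondin 1), a matrix glycoprotein, went from 61.2, 55.3 and 56.1 CPM to 113, 111 and 190 CPM. Replicate 3 at 4 h was well above the others, and Thbs1 kept its call without it. Adamts1, a secreted protease that cleaves proteoglycans, was at 46.5, 40.4 and 72.5 CPM in naive and 85.5, 133 and 174 CPM at 4 h (log2 1.33 ± 0.31, adjusted p = 0.0697, edgeR). Thbs1 and Adamts1 were the 2 risen members of 22 tested matrix and adhesion genes (9.09%, against 0.527% of all genes, median change 0.263). Among the growth factors and cytokines 2 of 13 tested genes rose (15.4%, against the same 0.527%). These were Vegfa, the vascular growth factor, from 64.8, 62.2 and 95.8 CPM to 142, 148 and 180 CPM, and the chemokine Cxcl10, from 102, 60.5 and 89.3 CPM to 160, 312 and 326 CPM. Adamts1, Vegfa and Cxcl10 lost their calls in 4 or 5 of the 6 fits that left out 1 library.

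Smaller rises came from abundant matrix genes outside the lists, named here after their values were seen. Matn2 (matrilin 2), among the most abundant genes called, rose 1.39-fold, from 826, 802 and 810 CPM to 1110, 1191 and 1024 CPM (adjusted p = 0.0567, edgeR). Reln (reelin) rose 1.48-fold, from 285, 348 and 289 CPM to 471, 415 and 449 CPM. The collagen genes Col12a1 and Col27a1 rose 1.91-fold and 1.94-fold. The receptor genes Nrp2, a co-receptor for semaphorins and VEGF, and Oxtr, the oxytocin receptor, rose 1.54-fold and 1.98-fold. Each gene of this group lost its call in at least 1 of the 6 fits that left out 1 library.

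NF-kB and Notch signalling each gave 2 called genes. Tnfaip3 (A20), an inhibitor of NF-kB, was at 8.14, 7.93 and 15.4 CPM in naive and 22.9, 54.7 and 44.0 CPM at 4 h (log2 1.97 ± 0.40), and Nfkbiz, a nuclear regulator of NF-kB, at 2.54, 5.58 and 2.98 CPM and 7.54, 12.4 and 13.4 CPM. They were 2 of 11 tested members of the NF-kB list (18.2%, against 0.527% of all genes, median change 0.42), and the inhibitor Nfkbia had a log2 change of 1.14 without a call (adjusted p = 0.158, edgeR). Of 11 tested Notch genes 2 rose (18.2%, against 0.527%). Hes1, a target of the pathway, rose from 8.76, 6.66 and 6.79 CPM to 15.6, 14.0 and 14.5 CPM, and the ligand Jag1 from 134, 126 and 159 CPM to 238, 222 and 206 CPM. The list's median change was -0.283, and the target Hey1 and the receptor Notch1 had changes of -0.48 and -0.28, neither called. Each of the 4 calls was lost in at least 4 of the 6 fits that left out 1 library. Among growth arrest genes the kinase Plk2, a p53 target, was the 1 called member of 12 tested (8.33%, against 0.527%), with 28.3, 27.0 and 24.0 CPM in naive and 61.9, 56.8 and 53.6 CPM at 4 h, and it lost its call in all 6 of those fits.

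The splicing kinase genes Clk1 and Clk4 rose, and most of their list did not. Clk1 and Clk4 encode kinases that phosphorylate SR splicing factors and regulate the splicing of their own transcripts. Clk1 went from 41.6, 26.1 and 25.3 CPM to 76.8, 90.6 and 93.8 CPM (log2 1.52 ± 0.20), and Clk4 from 27.6, 20.4 and 27.4 CPM to 58.4, 69.7 and 60.4 CPM (log2 1.35 ± 0.18). They were the 2 called members of 21 tested CLK and SR genes (9.52%, against 0.527% of all genes), and the list's median change was -0.0858. All libraries at 4 h lay below all naive libraries in 8 members (against 12.6% of all genes) and above them in 4 (against 8.48%). Clk2 and Clk3 had changes of 0.33 and 0.26 and were not called, and neither was the SR factor Srsf5, at 1.11 (adjusted p = 0.218, edgeR). Outside the list, and named after its values were seen, Pnisr, a nuclear protein with SR repeats, rose from 53.2, 59.7 and 77.7 CPM to 156, 177 and 171 CPM (log2 1.43 ± 0.20). The RNA helicase Ddx5, named in the same way, rose 1.87-fold, from 366, 339 and 500 CPM to 664, 712 and 830 CPM. Clk1, Clk4, Pnisr and Ddx5 kept their calls with each of the 6 libraries left out.

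The falls were smaller and held few members of any list. Hif3a, a subunit of the hypoxia-inducible factors that can oppose the others, fell most, by 2.44 on the log2 scale, from 91.2, 82.6 and 20.3 CPM in naive to 12.6, 14.2 and 8.15 CPM at 4 h (SE 0.43, adjusted p = 0.0144, edgeR). Per2, a repressor of the circadian clock, was at 55.8, 30.1 and 20.2 CPM in naive and 9.28, 10.3 and 5.66 CPM at 4 h. Wee1, a kinase that holds back entry into mitosis and a known clock target, was at 70.6, 37.8 and 15.8 CPM in naive and 8.84, 13.2 and 8.54 CPM at 4 h. In these 3 genes naive replicate 3 was the lowest naive library and the closest to the libraries at 4 h. Fam107a, which is known to respond to glucocorticoids, shared that order, with 290, 324 and 147 CPM in naive and 92.3, 97.4 and 119 CPM at 4 h, and so did the deubiquitinase Usp2, with 118, 82.2 and 41.5 CPM and 34.8, 32.3 and 34.2 CPM. Hif3a and Per2 lost their calls without naive replicate 1 or without replicate 3 at 4 h, Wee1 without either of these or replicate 1 at 4 h, and Fam107a and Usp2 in 5 of the 6 fits that left out 1 library.

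Around Per2, 17 clock genes were tested, and Per2 was the only one called (5.88% fell, against 0.618% of all genes). The list's median change was -0.454, with all libraries at 4 h below all naive libraries in 8 members and above them in 3. The same held for 12.6% and 8.48% of all genes tested. Among those lower were Per1 (-1.30, adjusted p = 0.158), Dbp (-1.36, adjusted p = 0.158) and Per3 (-0.81, adjusted p = 0.198, all edgeR), which peak together in the daily cycle. Arntl, whose cycle runs opposite to theirs, was at 3.57, 10.1 and 6.81 CPM in naive and 16.2, 13.6 and 12.1 CPM at 4 h (log2 1.06, not called). Of the 14 tested glucocorticoid response genes 0 were called, with a median change of -0.481. For Fkbp5, a chaperone induced by the hormone, the naive libraries were at 22.4, 27.9 and 4.00 CPM and those at 4 h at 3.65, 4.86 and 5.21 CPM, and for Zbtb16 at 11.1, 14.0 and 1.82 CPM and 2.44, 2.14 and 0.894 CPM. Naive replicate 3 thus sat among the libraries at 4 h for these genes, and the others did not. The part of the time of day and of handling in these values was not tested.

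**Figure D3:**
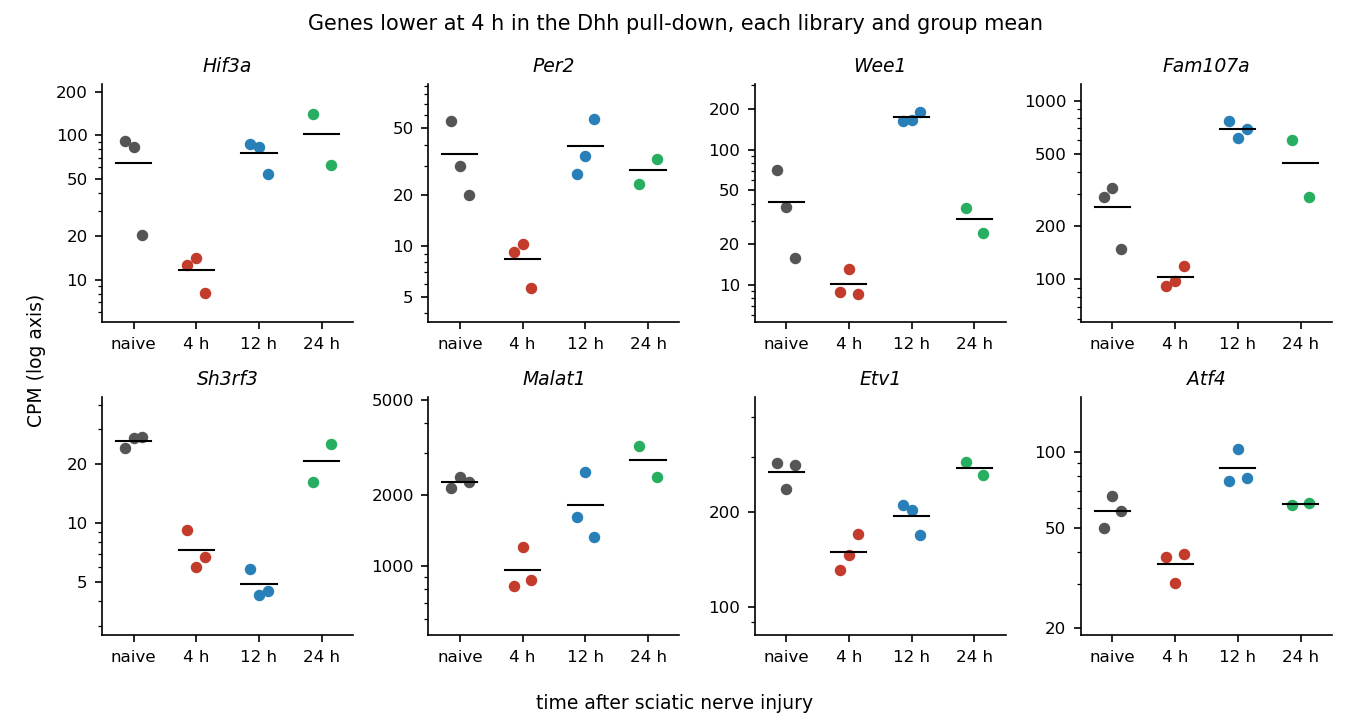
Level (CPM, log axis) of 8 genes that fell at 4 h in the Dhh pull-down, 1 point per library, with group means as bars, in the groups naive (3), 4 h (3), 12 h (3) and 24 h (2). All libraries at 4 h lie below all naive libraries, and naive replicate 3, the rightmost naive point, is the lowest for Hif3a, Per2, Wee1 and Fam107a.

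In other falls naive replicate 3 lay close to another naive library. Sh3rf3, a ubiquitin ligase of the POSH family, went from 24.2, 27.0 and 27.3 CPM to 9.21, 5.97 and 6.70 CPM (log2 -1.81 ± 0.24, adjusted p = 0.00116, edgeR), the smallest adjusted p among the falls. Malat1, an abundant nuclear long non-coding RNA (chr19:5795690-5802672), was at 2138, 2365 and 2269 CPM in naive and 825, 1203 and 878 CPM at 4 h, 2.29-fold lower. It was the 1 called member of 6 tested nuclear non-coding RNAs (16.7%, against 0.618% of all genes, median change -0.341); Meg3 was at -0.52 and Neat1 at -0.01, both without a call. Etv1, an ETS factor that ERK signalling activates, fell 1.76-fold, from 286, 238 and 282 CPM to 131, 147 and 170 CPM. Parp14, an ADP-ribosyltransferase of immune responses, fell 1.97-fold, from 147, 110 and 107 CPM to 52.1, 74.3 and 54.3 CPM. Sh3rf3, Malat1, Etv1 and Parp14, with Ccni and Fam13b, were the 6 falls called with each of the 6 libraries left out. Etv1, Parp14, Ccni and Fam13b were named after their values were seen.

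Single genes of the integrated stress response and of translation fell. Atf4, the central factor of that response, fell 1.59-fold, from 49.9, 66.8 and 58.2 CPM to 38.4, 30.1 and 39.3 CPM (adjusted p = 0.0955, edgeR), and its partner Cebpg, named after its values were seen, 2.02-fold, from 96.6, 88.5 and 78.7 CPM to 42.2, 40.2 and 45.7 CPM. Atf4 was the 1 called gene of 18 in its list (5.56%, against 0.618% of all genes, median change -0.211), and Ddit3, a target of Atf4, was at -0.58 without a call. Eif5, which helps ribosomes select the start codon, fell 1.73-fold, from 288, 259 and 303 CPM to 152, 155 and 173 CPM, as the 1 called gene of 23 translation initiation factors (4.35%, against 0.618%). Atf4 and Eif5 lost their calls in all 6 fits that left out 1 library.

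Enzymes, transporters and regulators of transcription made up the rest of the larger falls. Arrdc3, an arrestin-like adaptor, went from 60.6, 60.1 and 92.9 CPM to 27.9, 21.8 and 22.8 CPM, 2.89-fold lower. Pde1a, a phosphodiesterase activated by calmodulin, went from 221, 155 and 184 CPM to 78.7, 63.5 and 70.5 CPM, 2.58-fold lower. Ing5, a subunit of histone acetyltransferase complexes, fell 2.47-fold, the thiamine transporter Slc19a2 2.32-fold, Rpia, an enzyme of the pentose phosphate pathway, 2.25-fold, and the DNA- and RNA-binding protein Kin 2.60-fold. Genes named as zinc finger proteins (Zfp, Zkscan and Zscan, a group chosen after the values were seen) gave 9 of the 68 falls and 3 of the 58 rises. Such genes numbered 296, or 2.69% of those tested. Of the 296, 3.04% fell, against 0.618% of all genes, and 3 of the 296 rose, against 58 of all 11000 genes tested (0.527%). Their median change was -0.196. The largest of these falls were Zfp58, 2.44-fold, and Zfp606, 2.23-fold. Each gene named in this group of falls lost its call in at least 2 of the 6 fits that left out 1 library, and Arrdc3, Slc19a2, Rpia and Zfp58 in all 6.

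Several gene programmes had no called gene at 4 h, or only an immediate early one. None of 17 myelin genes, 16 heat shock and chaperone genes, 17 interferon response genes or 22 sterol synthesis genes was called in edgeR. Nor was any of 16 glial transcription factors or 20 potassium channels and glial transporters. The same held for 19 fatty acid and lipid genes, 8 targets of TGF-beta and BMP, 6 neuregulin and ErbB genes, 10 nociceptor, 7 fibroblast, 5 mural and 3 endothelial markers and 2 of neutrophils and mast cells. Of all 11000 genes 1.15% were called, so short lists without a call do not stand apart from all genes. An unadjusted p under 0.05 in edgeR was reached by 1190 genes. All libraries at 4 h lay below all naive libraries in 6 heat shock genes, 5 TGF-beta and BMP targets and 5 glial transcription factors (12.6% of all genes). They lay above in 0, 1 and 1 of these (8.48% of all genes). In 5 myelin genes they lay above and in 0 below. Of 10 tested repair Schwann cell genes the only call was Jun, and of 10 regeneration-associated genes Atf3 (10.0% each, against 0.527% of all genes). The gp130 and STAT3 list gave 1 call among 12, which was Junb (8.33%, against 0.527%). The metallothioneins Mt1 and Mt2, with changes of -0.16 and 0.05, were not called.

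The later libraries show how long these levels lasted, with the values at 4 h as the common reference of both later comparisons. The called genes followed here were chosen by their change at 4 h, and the same libraries at 4 h enter both comparisons. Part of a move back toward the naive levels is therefore built in, and these values are descriptive. In edgeR, 3737 genes (34.0%) differed between 12 h and 4 h, 17.7% higher and 16.3% lower at 12 h, and 1069 (9.72%) between 24 h and 4 h, 4.64% higher and 5.08% lower at 24 h. Against naive, 17.3% of genes were higher and 15.6% lower at 12 h, and 1.23% were higher and 1.45% lower at 24 h. Egr1, at 3128 to 3773 CPM at 4 h, was at 113, 790 and 1673 CPM at 12 h and 57.6 and 99.6 CPM at 24 h. Fos fell from 354 to 485 CPM at 4 h to 46.8, 193 and 189 CPM at 12 h and 24.3 and 16.2 CPM at 24 h, and Cyr61 to 47.3, 122 and 302 CPM and 11.7 and 9.24 CPM. The log2 differences between 12 h and 4 h were -1.85 for Egr1, -1.40 for Fos, -2.41 for Cyr61 and -2.24 for Ier2, all called. In these genes replicate 1 at 12 h was far below replicates 2 and 3. Other early genes were higher at 12 h than at 4 h. Fosb reached 17.7, 57.0 and 42.8 CPM (log2 1.76, adjusted p = 0.00467), Atf3 33.9, 79.4 and 92.2 CPM (1.27, 0.00467) and Csrnp1 34.7, 112 and 131 CPM (1.99, 0.00117, all edgeR). Adamts1 and Cxcl10 also went up further, to 317, 734 and 708 CPM and 514, 1401 and 1908 CPM. Some members of the immediate early list that were not called at 4 h were higher at 12 h: Myc was at 51.6, 88.5 and 109 CPM (log2 12 h minus 4 h 3.66) and Fosl2 at 194, 284 and 310 CPM (3.27). Jun and Junb were not called different between 12 h and 4 h (adjusted p = 0.732 and 0.976, edgeR).

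At 24 h several of the steep rises were back near the naive levels. Dusp1 was at 9.99 and 6.25 CPM and Jun at 50.0 and 52.0 CPM, with log2 differences from 4 h of -4.53 and -2.75. Atf3, at 23.0 and 20.4 CPM, was not called different from its level at 4 h (adjusted p = 0.322, edgeR), and its 24 h libraries lay above all naive ones. Levels of several fallen genes were higher again in the later libraries, with the same limit from their choice at 4 h. Hif3a was at 87.3, 83.3 and 54.1 CPM at 12 h and 140 and 62.7 CPM at 24 h. Malat1 was at 1613, 2496 and 1334 CPM and 3213 and 2384 CPM, and Atf4 at 76.6, 103 and 78.6 CPM and 61.3 and 62.9 CPM. Wee1 reached 164, 166 and 189 CPM at 12 h, above every naive library. Sh3rf3 was still low at 12 h, at 5.82, 4.32 and 4.54 CPM, and it was at 16.1 and 25.1 CPM at 24 h.

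The neuronal pull-down of the Isl1 line, made at the same times, allowed a test of where the glial response differed. In that line 345 of 11301 genes tested were called at 4 h (3.05%), 71 higher and 274 lower. Of the 58 genes that rose in glia 48 were tested in neurons, where 8 were called higher (against 0.628% of all genes tested there) and 2 lower (2.42%), with a median change of 0.162. Of the 68 falls 59 were tested in neurons, where 14 were called lower (2.42%) and 0 higher (0.628%). In the joint fit of both lines 91 of 9940 genes had different responses (0.915%), and 25 of these 48 responded more strongly in glia (0.533% of all genes). Of the 59 fallen genes in the joint fit, 21 had the more negative response in glia (0.382% of all genes). The members were chosen by the glial change, which enters the difference, so these counts are descriptive.

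The immediate early transcription factors were the clearest case. Fos was at 2.63, 3.55 and 4.65 CPM in naive neurons and 7.34, 7.34 and 6.35 CPM at 4 h, against 354 to 485 CPM in glia at 4 h. Its response was 4.84 ± 0.58 higher in glia on the log2 scale (adjusted p = 3.91e-05, edgeR, interaction term). Egr1 rose in neurons too, from 2.65, 4.22 and 5.81 CPM to 17.1, 16.5 and 16.9 CPM, and its response was 4.26 ± 0.78 higher in glia. For Jun the neuronal libraries overlapped, with 97.3, 90.7 and 89.7 CPM in naive and 76.4, 93.9 and 74.7 CPM at 4 h, where glia rose 8.17-fold (difference 3.20 ± 0.34). Klf6, Btg2, Ier2, Zfp36, Dusp1 and Arc were likewise called in glia and not in neurons, and their differences ranged from 1.97 ± 0.26 for Klf6 to 4.35 ± 0.45 for Btg2. In the joint fit, 11 of 19 immediate early genes tested had the higher response in glia (against 0.533% of all genes) and 0 the lower (against 0.382%). Cyr61 rose in both lines, from 0.350, 0.507 and 0.554 CPM to 8.76, 9.91 and 8.70 CPM in neurons, and the responses were not called different (2.37 ± 0.95, adjusted p = 0.392, edgeR). Markers of myelinating Schwann cells summed to 907 to 942 CPM in the naive neuronal pull-down, and the part of glial RNA in its values was not tested.

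Some genes moved in opposite directions. Clk1, which rose in glia, fell in neurons from 17.2, 21.4 and 27.9 CPM to 7.42, 4.75 and 7.10 CPM (log2 -1.78 ± 0.27, adjusted p = 0.00414, edgeR). The response was 3.30 ± 0.36 higher in glia (adjusted p = 1.50e-05, edgeR). Zfp280c, a zinc finger gene, rose 2.04-fold in glia and had 7.55, 7.55 and 7.35 CPM in naive neurons and 4.33, 4.71 and 4.27 CPM at 4 h (log2 -0.75, adjusted p = 0.00565, edgeR). Wee1 was not called in neurons, at 12.3, 13.5 and 12.1 CPM in naive and 13.6, 13.2 and 13.5 CPM at 4 h, and its response in glia minus that in neurons was -2.08 ± 0.43 (adjusted p = 0.0286, edgeR). Some genes, named for being called in both lines, had the same direction in each. Dusp11, H3f3b, Hes1 and Ddx5 rose in both, and Ctdspl fell in both, in neurons from 12.1, 11.8 and 13.3 CPM to 7.09, 6.56 and 6.87 CPM.

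**Figure D4:**
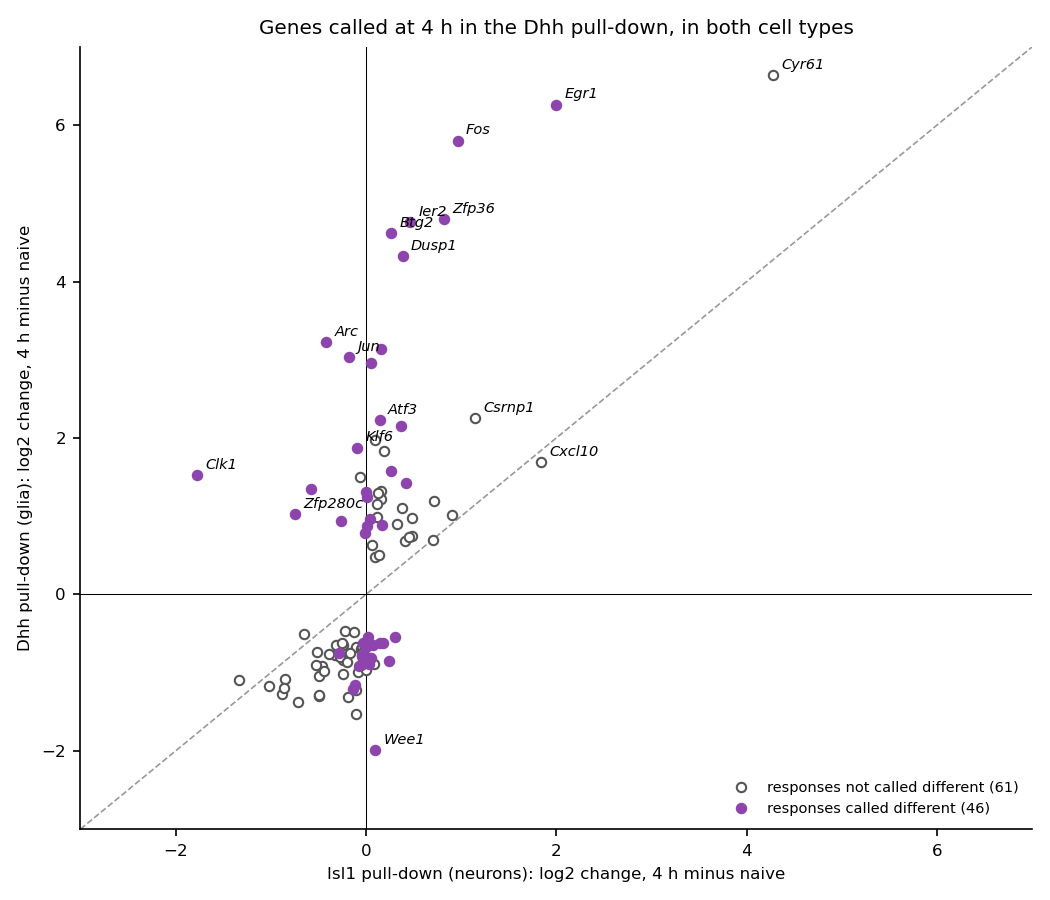
Change at 4 h (log2, 4 h minus naive) in the Dhh pull-down against the change in the Isl1 pull-down, for the 107 genes called in the Dhh pull-down and tested in both, with genes whose responses were called different in purple and the line of equal change dashed. Fos, Egr1, Zfp36, Ier2, Btg2 and Dusp1 lie far above the line near a small neuronal change, and Clk1 lies to the left of 0 and above it.

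The lysate of whole ganglia of the Isl1 line showed part of the same rises. In it 157 of 12238 genes were called at 4 h (1.28%), and of the 53 glial rises tested there 16 were called higher (0.523% of all genes) and 1 lower (0.760%), and of 66 glial falls 11 were called lower. The 157 calls fell to between 11 and 77 with 1 lysate left out and to 36 with the replicate number as a block, so these overlaps are uncertain. Cyr61 was at 2.98, 3.80 and 2.68 CPM in the naive lysates and 256 and 200 CPM in the 2 lysates at 4 h, and Egr1 at 13.0, 20.6 and 25.2 CPM and 291 and 263 CPM. For Fos they held 4.18, 4.39 and 6.06 CPM and 42.0 and 36.9 CPM. For these 3 genes the level at 4 h lay between that of the glial and that of the neuronal pull-down. The 1 glial rise called lower in the lysates was Clk1. It was at 24.3, 29.6 and 34.0 CPM in the naive lysates and 11.1 and 13.4 CPM at 4 h (log2 -1.21, adjusted p = 0.0174, edgeR).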

How the data were processed

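The authors eluted RNA from anti-HA precipitates of lumbar ganglia, depleted ribosomal RNA, amplified the cDNA and sequenced paired ends. Per their methods, reads were aligned to mm10 with STAR and HTSeq counted the uniquely mapped reads over RefSeq genes. CASAVA 1.8.2, edgeR and the builds mm9 and mm10 appear in the submitters' processing notes. A strand setting for the counting was not found in these sources, so reads of overlapping and antisense genes cannot be told apart. The deposited tables hold raw counts, which were used here, and normalized signal columns made by the authors, from which only their library sizes were derived.

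The Dhh table lists 11285 genes. Spreadsheet-converted symbols were restored for 16 of 17, and 1 was dropped. Counts were tested in edgeR 4.0.16 (R 4.3.3) with TMM scaling, the quasi-likelihood F test and Benjamini-Hochberg adjustment, after a filter of mean FPKM above 1 (lengths from GENCODE; 65 genes without a length were not tested), in 1 fit over all 11 Dhh libraries. Responses of both lines were compared by an interaction term over 23 libraries. Standard errors were derived from the log2 change and its F statistic. The 6 libraries held 39820669 to 53716839 counts. The test was checked on simulated counts. Alternatives changed the normalization, filter, threshold, tool (DESeq2 1.42.0), libraries and blocking.

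Named genes were the 15 largest called changes in each direction with a mean count of at least 50 and no overlap between the groups, predicted genes left out, the 5 largest response differences in each direction by the same rule, up to 4 members with the smallest p of each of 37 gene lists (any member for the immediate early, clock, glucocorticoid and metallothionein lists), and the tagged and driver genes. Any other gene was picked with its values in view, and some genes are not reported here. The comparison and the lists were chosen with earlier results of these data known.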

Additional observations from a re-analysis of the deposited data

Results flagged for a closer look

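The test of the difference between the glial and the neuronal response at 4 h singled out 10 genes, the 5 largest differences in each direction (log2 response in the Dhh pull-down minus that in the Isl1 pull-down, adjusted p from edgeR's interaction term). The response was higher in glia for Fos by 4.84 (adjusted p = 3.91e-05), Btg2 by 4.35 (1.41e-05), Ier2 by 4.29 (3.91e-05), Egr1 by 4.26 (0.00932) and Zfp36 by 3.98 (0.00395). It was lower in glia for Wee1 at -2.08 (adjusted p = 0.0286), Zfp13 at -1.5 (0.0386), Polr1b at -1.27 (0.0771), Ifrd1 at -1.16 (0.0589) and Smc5 at -1.09 (0.0469, all edgeR). The first 6 of these 10 kept their calls in all 20 alternatives, whereas Zfp13 kept it in 13, Smc5 in 12, Ifrd1 in 10 and Polr1b in 8. Zfp13, Polr1b and Ifrd1 were not called at 4 h in glia alone (adjusted p = 0.104, 0.185 and 0.235, edgeR).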

How the results depend on the processing

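The comparison of 4 h with naive gave 126 calls, and 131, 127, 130 and 129 with DESeq2 size factors, the authors' library sizes, no filter and edgeR's filterByExpr. It gave 60 at an FDR under 0.05, 359 with DESeq2's Wald test and 558 with only the groups compared in the fit, and 33 to 124 with 1 library left out. Of the 126, 126, 125 and 33 to 77 were among those of DESeq2, of the groups compared only and of the fits with 1 library left out. Chosen after seeing the data, leaving out the 12 h libraries gave 418 and leaving out naive replicate 3 as well 578. Deviations of samples with the same replicate number correlated at r = 0.0479, 0.0017 and 0.186, and those of the other pairs at -0.142 to 0.116. Replicate 3 at 4 h correlated best with naive replicate 3, replicate 1 with naive replicate 2 and replicate 2 with naive replicate 1. Such weak values cannot settle whether a shared number means a pairing. A replicate block gave 106 calls, of which 95 were among the 126. With the naive Dhh libraries of the naive series as reference 7290 of 9502 genes were called, 3650 higher and 3640 lower. Of the 126, 63 were among them in the same direction, where calls in either direction were common among all genes.

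The count for 12 h against 4 h, 3737, stayed between 2882 and 4203 in the alternatives run. That for 24 h against 4 h, 1069, was 618 at the stricter FDR, 1816 with only the groups compared and 386 to 650 with 1 library left out. The interaction count, 91, was 43 at the stricter FDR, 216 with DESeq2, 321 with only the groups compared, 74 with the block and 31 to 163 with 1 library left out, the highest without naive replicate 3 of the Dhh line. For the Isl1 pull-down, 345 became 211, 615 and 1435, 392 with the block, and 110 to 231 with 1 library left out. For the Isl1 lysates, 157 became 62, 459 and 668, 36 with the block, and 11 to 77 with 1 library left out, where leaving out a lysate at 4 h assumes that the remaining one varies like the other groups. The cause of these differences was not tested.

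With the naive libraries of the naive series, a table made apart, 35 named genes had the opposite sign and were called there or in the reported comparison. The log2 changes were -0.38 for Junb, 0.0472 for Per2, 0.80 for Pde1a, 0.62 for Smc5, -1.96 for Prph, -2.81 for Uchl1, 1.03 for Scn10a, -1.09 for Calca, -0.78 for Prx, -0.37 for Ncmap, -1.09 for Cd14, -2.79 for Egfl7, -2.30 for Tagln, -2.19 for Gadd45g, -1.19 for Gadd45b, 0.72 for Hlf, -3.92 for Mt2, -1.45 for Ppp1r15a, 2.03 for Lifr, -2.60 for Nfkbia, -0.50 for Amotl2, -1.58 for Hes1, 2.24 for Nrg1, 0.59 for Meg3, -1.46 for Eif5a, 2.21 for Eif4ebp2, 1.65 for Kcna2, -1.18 for Itga7, -2.98 for Tubb3, 2.52 for Clock, 7.96 for Rora, -4.27 for Jund, -0.0579 for Nr4a1, 1.49 for Nr4a2 and -0.68 for Sgk1. Rpl22 and Dhh, which were not called, also changed sign with some single libraries left out, again without a call. A gene that was not called is not shown to be unchanged.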
